A study of Mus musculus with 9 samples.

Results

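*Vgf* and *Txnip* are the 2 genes of this report, taken by gene symbol from a table of 55401 genes because earlier work on cell lines had named both as genes that NPAS3 regulates. NPAS3 is a transcription factor of the bHLH-PAS family, which binds DNA as a dimer with ARNT or ARNT2. The question put to the data was whether either transcript differs in forebrain tissue when 1 copy of *Npas3* is lost. RNA-seq was run on bulk forebrain from 5 WT (*Npas3*+/+) and 4 HET (*Npas3*+/-) mouse embryos, all female and aged E16 to E17. The HET embryos carried a constitutive deletion allele on the C57BL/6J background, so the deletion was present in every cell, and the WT embryos were their littermates from crosses of HET mice with HET or C57BL/6J mice. The labels shorten the genotypes to Npas+/+ and Npas+/- and give no treatment. Embryos are named here by the numbers that the labels give them, which are embryo 5, 15, 16, 41 and 43 for WT and embryo 5, 6, 7 and 24 for HET.

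VGF is a secreted protein of neurons and endocrine cells that is stored in dense core vesicles together with the granins. Its gene is induced by neurotrophins and by neuronal activity, in part through the transcription factor CREB. Prohormone convertases cut the precursor into peptides that act on synapses, mood and energy balance. TXNIP is an alpha-arrestin. It binds and inhibits thioredoxin, a protein that keeps other proteins reduced, and it promotes the removal of glucose transporters from the cell surface. Its gene is a classical glucose sensor, because the transcription factors MondoA and ChREBP, each with the partner MLX, bind its promoter when glucose phosphates accumulate.

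*Vgf* (ENSMUSG00000037428) lies on the plus strand of GRCm38 at chr5:137026392-137033351, with 4 annotated transcripts and 2973 exonic bases that no other gene overlaps. *Txnip* (ENSMUSG00000038393) lies on the plus strand at chr3:96557957-96561883, with 6 annotated transcripts and 3123 exonic bases. Exons of *Gm15441*, a gene on the opposite strand, overlap 19.4% of the exonic bases of *Txnip*. Whether the strand of a read was used in counting is not given in the sources used here, so reads from the shared stretch cannot be assigned to one strand with certainty.

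The promoter of *Txnip* is shown because it holds the sequence through which glucose acts on the gene. The 250 bases before the start site, chr3:96557707-96557956 on the plus strand (RefSeq, GRCm38.p6), have a GC content of 66.8%, and the capitals mark a match to the carbohydrate response element, a pair of E-box-like sites written here as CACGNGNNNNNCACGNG.
Txnip promoter: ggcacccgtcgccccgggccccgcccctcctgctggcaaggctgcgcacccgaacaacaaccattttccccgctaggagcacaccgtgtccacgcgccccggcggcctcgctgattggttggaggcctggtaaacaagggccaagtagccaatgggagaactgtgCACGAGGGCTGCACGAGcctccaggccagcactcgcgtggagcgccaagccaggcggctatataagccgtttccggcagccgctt
The match begins 85 bases before the start site. Both strands of a window of 300 bases were searched, of which 50 lie after the start site, and the same element was found in 16 of 32851 promoter windows (0.0487%). The E-box CANNTG, the general motif of bHLH factors, had 1 match in the *Txnip* window, CAGTTG at transcribed bases 42 to 47, and was present in 72.3% of all windows. The core CGTG, shared by the sites of many ARNT dimers, had 5 matches, of which 2 lay inside the carbohydrate response element, and was present in 61.7% of all windows. These matches are letters in a window and no measurement of binding. The promoter table matched 1 of the 2 genes, so no sequence is given for *Vgf*.

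Each embryo had 42640218 to 62830060 counted reads (median 45845845). Levels are given as CPM, edgeR's usual measure of a gene's share of the reads of its library, after TMM scaling. The difference between HET and WT was tested with the quasi-likelihood method of edgeR in the 17818 genes that passed its filter on low counts, with Benjamini-Hochberg adjustment. Of these, 25 genes (0.14%) had an adjusted p under 0.05, and neither *Vgf* nor *Txnip* was among them. An unadjusted p under 0.05 was found for 965 genes (5.42%). In 330 genes (1.85%) the WT and HET embryos did not overlap, and in 140 of them (0.786% of the tested genes) every HET embryo was above every WT embryo. The choroid plexus, which makes cerebrospinal fluid, contributed much RNA to 4 libraries. Its marker *Ttr*, which encodes transthyretin, was at 2127 to 2631 CPM in WT 15, WT 16 and WT 41 and at 466.6 CPM in HET 24, against 0.770 to 11.7 CPM in the other embryos. Nothing in the labels says that embryos came from separate litters, and p-values measure the spread between these embryos only. In bulk tissue, fewer cells of a type and less RNA per cell cannot be told apart.

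*Npas3* (ENSMUSG00000021010, plus strand, chr12:53248677-54072175) was lower on average in HET embryos. It was at 40.8, 35.4, 29.7, 38.3 and 37.0 CPM in WT 5, 15, 16, 41 and 43, and at 27.9, 28.2, 34.1 and 27.8 CPM in HET 5, 6, 7 and 24. The groups overlapped, since HET 7 stood above WT 16. WT embryos had a mean of 36.2 ± 4.18 CPM (SD, n = 5) and HET embryos one of 29.5 ± 3.09 CPM (SD, n = 4), a log2 fold change of −0.30 (SE 0.10). The test of edgeR gave an unadjusted p of 0.0134 and an adjusted p of 0.877. Since the library labelled HET 7 lay within the WT range of the targeted gene, *Vgf* and *Txnip* are given below also without it. Its label was kept and was not tested. HET 7 had fewer reads of *Fabp7* (17426) than any WT embryo (21952 to 39493), but lay within the WT range for *Aldh1l1*. WT 16 in turn lay within the HET range of *Npas3*. Without WT 16 the log2 fold change was 0.60 for *Vgf* and 0.12 for *Txnip*. The genes of the NPAS3 dimer partners, *Arnt* and *Arnt2*, missed the threshold as *Npas3* did. Of these 3 genes 0 passed it, against 0.14% of all tested genes. In edgeR 1 of them, *Npas3*, had an unadjusted p under 0.05, against 5.42%.

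*Vgf* was 1.51-fold higher in HET than in WT embryos on average, and this difference did not pass the threshold over all genes. Its level was 8.18, 7.52, 7.13, 8.43 and 4.62 CPM in WT 5, 15, 16, 41 and 43. In HET 5, 6, 7 and 24 it was 6.60, 10.01, 16.2 and 10.6 CPM. All HET embryos but HET 5 were above every WT embryo, and HET 5 was below 4 of the 5 WT embryos, so the groups overlapped. The lowest level was that of WT 43 and the highest that of HET 7, and these differed 3.51-fold. From low to high the order was WT 43, HET 5, WT 16, WT 15, WT 5, WT 41, HET 6, HET 24 and HET 7, and the neighbours from HET 5 to WT 41 and from HET 6 to HET 24 lay closer together than the SD of either group.

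The mean level of *Vgf* was 7.18 ± 1.52 CPM in WT (SD, n = 5) and 10.9 ± 3.98 CPM in HET (SD, n = 4). This is a log2 fold change of 0.60 (SE 0.24) with a 95% interval of 0.07 to 1.13, which is a fold of 1.05 to 2.19. The unadjusted p of edgeR was 0.0309 and the adjusted p was 0.909. An exact two-sided permutation test of log2 CPM over the embryos gave p = 0.0952, where the smallest p that its 126 splits allow is 0.00794. Without HET 7 the log2 fold change was 0.34, with an unadjusted p of 0.141 and an adjusted p of 0.999 by edgeR. Without HET 5 it was 0.77 (edgeR, unadjusted p = 0.00448, adjusted p = 0.592), the highest when each embryo was left out, and 0.34 was the lowest. Without the 4 libraries that held choroid plexus RNA it was 0.78 (adjusted p = 0.999 in edgeR), with 2 WT and 3 HET embryos left. Between 209 and 784 reads per embryo lay behind these values.

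*Txnip* differed little in mean level between the groups, and its values spread widely among the HET embryos. It was at 71.9, 78.5, 94.7, 58.2 and 61.1 CPM in WT 5, 15, 16, 41 and 43. In HET 5, 6, 7 and 24 it was at 97.8, 86.8, 32.7 and 74.9 CPM. HET 5 was the highest of all 9 embryos and HET 7 by far the lowest, at 2.99-fold below HET 5. The other HET embryos lay within the range of WT.

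The mean level of *Txnip* was 72.8 ± 14.7 CPM in WT (SD, n = 5) and 73.0 ± 28.5 CPM in HET (SD, n = 4), and the medians were 71.9 and 80.8 CPM. This is a log2 fold change of 0.00 (SE 0.26) with a 95% interval of −0.58 to 0.58, which covers folds of HET over WT from 0.671 to 1.498. The unadjusted p of edgeR was 0.989 and the adjusted p 0.998. An exact two-sided permutation test of log2 CPM gave p = 0.857. Without HET 7 the log2 fold change was 0.25 (edgeR, unadjusted p = 0.152, adjusted p = 0.999). The sign turned with the setting, and the estimate was −0.09 with limma-voom. Between 1583 and 4515 reads per embryo lay behind these values.

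**Figure D1:**
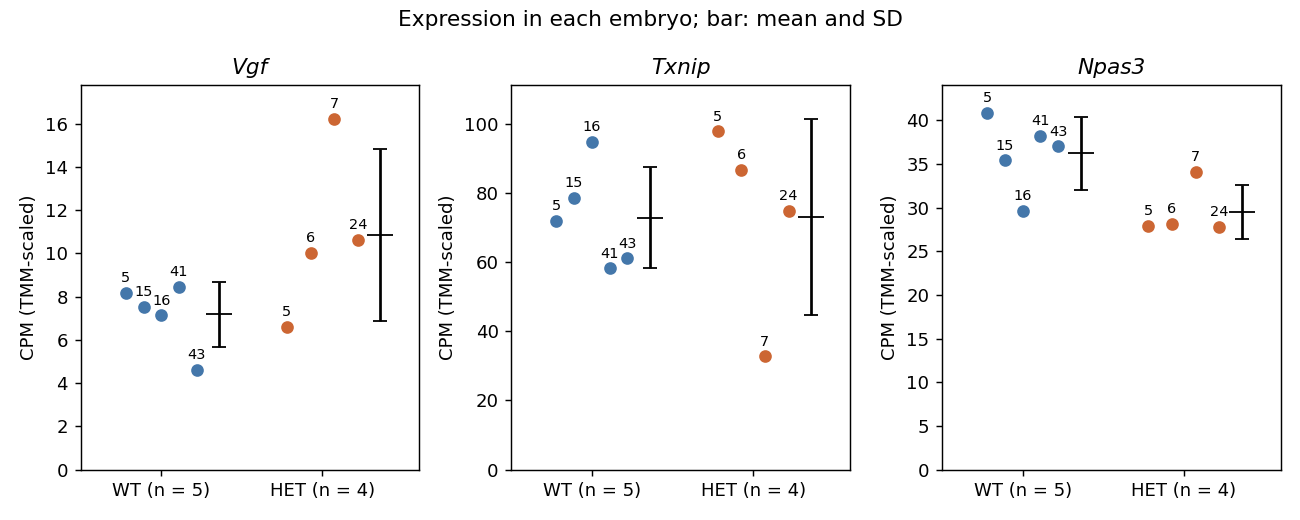
Expression of *Vgf*, *Txnip* and *Npas3* in CPM (linear axes from 0) in each embryo, with WT in blue and HET in orange, points numbered by embryo and bars giving mean and SD. HET 7 has the highest *Vgf* (16.2 CPM), the lowest *Txnip* (32.7 CPM) and the highest *Npas3* among the HET embryos (34.1 CPM).

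The spread between embryos was large for both genes compared with other genes. The biological coefficient of variation fitted by edgeR was 26.4% for *Vgf*, at percentile 87.9 of the tested genes, and 27.4% for *Txnip*, at percentile 89.2. The coefficient of variation was 21.2% in WT and 36.6% in HET for *Vgf*, and 20.2% and 39.0% for *Txnip*. Per kilobase of exon, a scale on which genes can be compared, *Txnip* was at 23.3 CPM/kb in WT and *Vgf* at 2.41 CPM/kb. This placed *Txnip* at percentile 87.5 of the tested genes and *Vgf* at percentile 44.8.

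The antisense gene *Gm15441* (ENSMUSG00000074398, minus strand, chr3:96555765-96566801) was examined after its values were seen. It had 12 to 35 reads per embryo and was at 0.456 ± 0.113 CPM in WT (SD, n = 5) and at 0.439 ± 0.0443 CPM in HET (SD, n = 4). Its log2 fold change was −0.07 (adjusted p = 0.970 in edgeR's test).

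**Figure D2:**
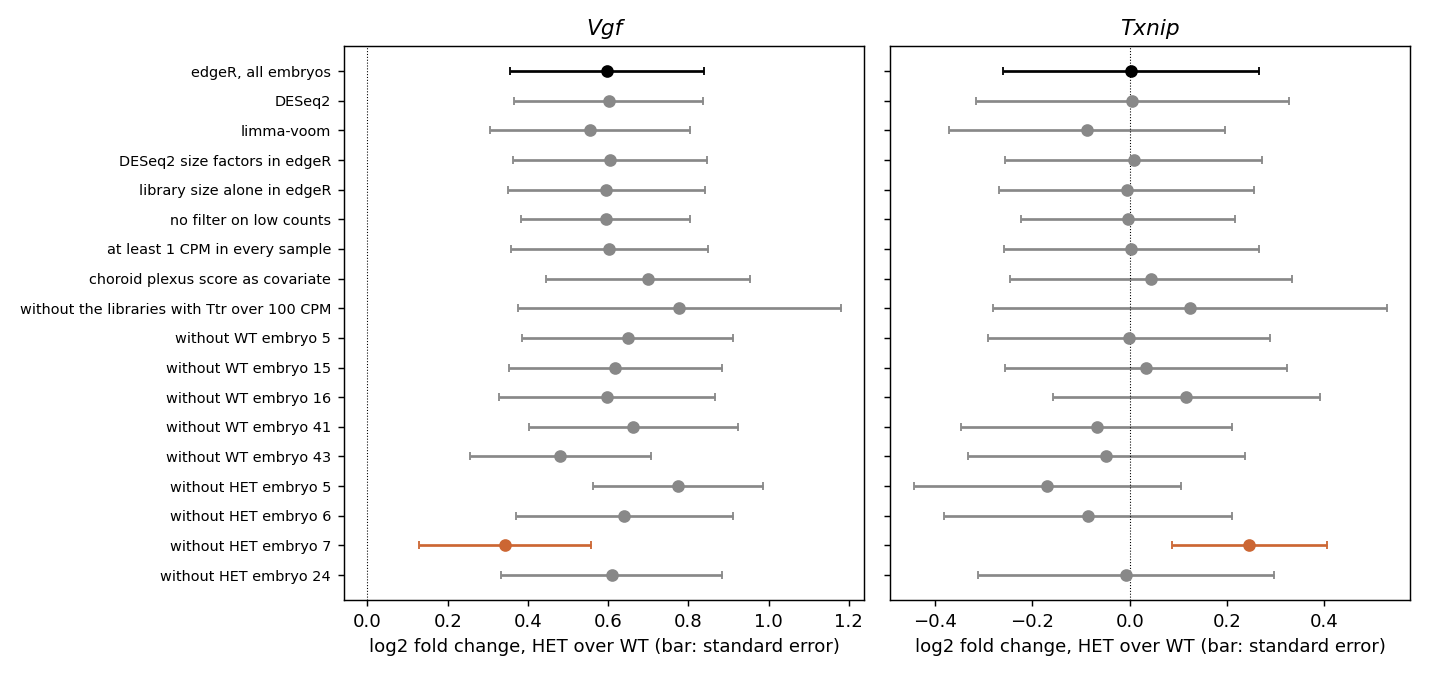
Log2 fold change of HET over WT (points) with its standard error (bars) for *Vgf* and *Txnip* under each way of fitting the data, with the estimate from all embryos in black and the estimate without HET 7 in orange. All estimates for *Vgf* are above 0, from 0.34 to 0.78, and those for *Txnip* lie on both sides of 0, from −0.17 to 0.25.

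The genes that make, store, cut or accompany VGF were examined as a list of 53 genes, of which 48 passed the filter. This list was chosen with earlier results of these data known, so its shares beside those of all genes are descriptions. None of the 48 passed the threshold in edgeR, 4 (8.33%) had an unadjusted p under 0.05 against 5.42% of all tested genes, and 1 called by DESeq2 is given with its values below. Log2 fold changes were above 0 in 43 of the 48 (89.6%), with a median of 0.11, whereas they were above 0 in 8639 of all 17818 genes (48.5%), with a median of 0.00. Without HET 7, 33 of the 48 (68.8%) were above 0, with a median of 0.07, and without the choroid plexus libraries 38 (79.2%). The 8 neuron markers given further below had 7 log2 fold changes above 0 (median 0.06), and the 8 radial glia markers 2 (median −0.14). Whether the shift is particular to VGF-related genes or shared by neuronal genes at large was not tested. Genes of one pathway are expressed together in the same cells, and these counts are not independent observations.

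The granins are the vesicle proteins most like VGF. All 6 measured had a log2 fold change above 0 (median 0.12), none past the threshold and none with an unadjusted p under 0.05, and 4 of the 6 did so without HET 7 (median 0.04). *Chga*, which encodes chromogranin A, was at 76.3 ± 7.19 CPM in WT (SD, n = 5) and at 85.3 ± 3.25 CPM in HET (SD, n = 4), a log2 fold change of 0.16 (edgeR, unadjusted p = 0.0510, adjusted p = 0.911). *Chgb*, for chromogranin B, was at 55.5, 59.2, 59.1, 59.5 and 51.8 CPM in the WT embryos and at 50.1, 62.6, 80.6 and 63.1 CPM in HET 5, 6, 7 and 24. *Scg2*, for secretogranin II, was at 13.2, 12.1, 7.50, 16.0 and 10.7 CPM in WT and at 8.88, 15.5, 23.9 and 12.3 CPM in HET. For both, HET 7 was the highest of all embryos and HET 5 was below at least 4 of the 5 WT embryos, as for *Vgf*. *Chgb* had a log2 fold change of 0.17 (SE 0.11) and *Scg2* one of 0.35 (SE 0.27), each with adjusted p = 0.911 in edgeR, and both were 0.04 without HET 7.

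The enzymes that process VGF and other prohormones had 6 of 7 log2 fold changes above 0 (median 0.08), and 4 of 7 (median 0.05) without HET 7, and none passed the threshold. *Pcsk1* and *Pcsk2* encode the convertases that cut the precursor within the vesicle. *Pcsk1* was at 2.19 to 3.25 CPM in WT and 2.98 to 3.25 CPM in HET (log2 fold change 0.18, adjusted p = 0.911 in edgeR), and *Pcsk2* had a log2 fold change of 0.00 (adjusted p = 0.996 in edgeR), the sign of which turned with the setting. *Cpe*, for the carboxypeptidase that trims the cut ends, was by far the most abundant at 117 CPM/kb in WT. Its log2 fold change was 0.10 (adjusted p = 0.927 in edgeR) and −0.01 without HET 7. *Furin*, for a convertase of the Golgi, was at 43.7, 39.2, 33.7, 35.9 and 36.7 CPM in WT and at 45.3, 42.7, 44.3 and 44.3 CPM in HET. Only WT 5 reached the range of HET, and the log2 fold change was 0.22 (SE 0.08, edgeR unadjusted p = 0.0146, adjusted p = 0.896). Without the choroid plexus libraries it was 0.13 (edgeR, unadjusted p = 0.234).

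Among the neurotrophins and their receptors, 9 genes of which 7 were tested, all 7 had a log2 fold change above 0 (median 0.20), 5 of 7 without HET 7 (median 0.09), and none passed the threshold. *Bdnf*, for the neurotrophin known to induce *Vgf*, was at 4.35, 5.91, 4.68, 4.95 and 4.13 CPM in WT and at 6.69, 5.50, 6.41 and 5.59 CPM in HET. Of the WT embryos only WT 15 lay within the range of HET. This gave a log2 fold change of 0.33 (SE 0.13, edgeR unadjusted p = 0.0274, adjusted p = 0.909), 0.30 without HET 7 and 0.55 without the choroid plexus libraries. An antisense gene overlaps 14.4% of the exonic bases of *Bdnf*, which makes its level uncertain. *Ntrk2*, for the receptor of BDNF, was at 130.2 ± 24.7 CPM in WT (SD, n = 5) and at 135 ± 22.1 CPM in HET (SD, n = 4), a log2 fold change of 0.05 (adjusted p = 0.961 in edgeR) that was −0.03 without HET 7.

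CREB and its coactivators had 6 of 8 log2 fold changes above 0 (median 0.07), and 3 of 8 (median −0.02) with the level of the choroid plexus markers as a covariate. *Creb1* itself was at 199 ± 21.2 CPM in WT (SD, n = 5) and at 198 ± 29.4 CPM in HET (SD, n = 4) (log2 fold change −0.01, adjusted p = 0.995 in edgeR). The activity-regulated genes, which include *Egr1* and *Arc*, had 7 of 8 tested members above 0 (median 0.19), all but *Fos* (log2 fold change −0.42). The count was 5 of 8 without HET 7 and 4 of 8 both without the choroid plexus libraries and with the choroid plexus covariate. The binding partners of VGF peptides had 2 of 3 above 0 (median 0.05), and 1 of 3 without the choroid plexus libraries. None of the tested genes of these groups passed the threshold, and none had an unadjusted p under 0.05.

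The other neuropeptide precursors, 10 genes of which 9 were tested, had a log2 fold change above 0 in 9 of 9 (median 0.24), in 5 of 9 without HET 7 (median 0.12), and in 9 of 9 without the choroid plexus libraries (median 0.68). *Npy*, for neuropeptide Y, was the single VGF-related gene whose groups did not overlap, against 1.85% of all tested genes. It was at 2.43, 4.38, 5.39, 5.2 and 4.95 CPM in WT 5, 15, 16, 41 and 43 and at 7.43, 6.94, 7.21 and 9.56 CPM in HET 5, 6, 7 and 24. Every HET embryo was above every WT embryo, as was so for 0.786% of the tested genes. Its log2 fold change was 0.80 (SE 0.21) with an unadjusted p of 0.00292 and an adjusted p of 0.531 by edgeR, and DESeq2 gave the same log2 fold change with an adjusted p of 0.0289. *Tac1*, for the precursor of substance P, was at 0.370 to 0.664 CPM in WT and at 0.455, 0.932, 1.98 and 0.672 CPM in HET. It rested on 17 to 96 reads per embryo. Its log2 fold change was 0.85 (edgeR, unadjusted p = 0.0470, adjusted p = 0.911) and 0.30 without HET 7.

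The list around TXNIP, also chosen with earlier results of these data known, held 41 genes, of which 39 passed the filter. None passed the threshold in edgeR or DESeq2, 3 (7.69%) had an unadjusted p under 0.05 against 5.42% of all tested genes, and in none did the groups fail to overlap. Log2 fold changes were above 0 in 11 of the 39 (28.2%), with a median of −0.05. This count moved with the choroid plexus libraries. Without them, 20 of the 39 (51.3%) were above 0.

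The alpha-arrestins are the protein family of TXNIP. Of its 5 other genes, *Arrdc5* had 0 reads in every embryo, which still allows an expected count of up to about 3 in each. The 4 tested had log2 fold changes below 0 (median −0.16), none with an unadjusted p under 0.05 in edgeR. Without the choroid plexus libraries 2 of the 4 were above 0. *Arrdc3*, for a regulator of receptor traffic, was at 361.6 CPM in WT 5 and at 126.8, 129.9, 138.7 and 127.3 CPM in WT 15, 16, 41 and 43. In HET 5, 6, 7 and 24 it was at 129.5, 121.6, 121.1 and 104.1 CPM. WT 5 stood apart from all other embryos. The log2 fold change was −0.57 (edgeR, unadjusted p = 0.0864, adjusted p = 0.911) with WT 5, −0.13 without it and −0.98 without the choroid plexus libraries, where WT 5 is 1 of 2 WT embryos. *Arrdc4*, like *Txnip* an alpha-arrestin gene that glucose induces, was at 33.5, 50.3, 54.7, 34.9 and 35.99 CPM in WT and at 36.6, 36.2, 35.5 and 47.8 CPM in HET. HET 7, the lowest for *Txnip*, was near HET 5 and HET 6 for *Arrdc4*. Its log2 fold change was −0.10 (adjusted p = 0.940 in edgeR) and turned to 0.06 without the choroid plexus libraries.

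In the thioredoxin system, 1 of 10 genes had a log2 fold change above 0 (median −0.06), none had an unadjusted p under 0.05, and 4 of 10 were above 0 without the choroid plexus libraries. *Txn1*, for the thioredoxin that TXNIP binds, was at 114 ± 12.3 CPM in WT (SD, n = 5) and at 111 ± 11.5 CPM in HET (SD, n = 4) (log2 fold change −0.04, adjusted p = 0.950 in edgeR). *Txnrd1*, for its reductase, was at 292 ± 22.6 CPM in WT and 294 ± 11.5 CPM in HET (log2 fold change 0.01, adjusted p = 0.986 in edgeR). The 95% interval of *Txnrd1*, −0.14 to 0.16 on the log2 scale, was the narrower of the pair, and both signs turned with the setting.

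Of the glucose sensors that drive *Txnip*, *Mlxip*, which encodes MondoA, was at 90.4, 75.6, 57.3, 75.7 and 82.6 CPM in WT and at 91.3, 89.0, 81.3 and 91.9 CPM in HET (log2 fold change 0.21, edgeR unadjusted p = 0.0834, adjusted p = 0.911). It was 0.12 without WT 16 and 0.01 without the choroid plexus libraries. *Mlxipl*, which encodes ChREBP, was scarce at 0.213 CPM/kb in WT, against 9.17 CPM/kb for *Mlxip* and 16.1 CPM/kb for their partner *Mlx*. *Mlxipl* had a log2 fold change of −0.13 (adjusted p = 0.945 in edgeR; −0.51 without the choroid plexus libraries) and that of *Mlx* −0.05 (adjusted p = 0.938 in edgeR). Another gene overlaps 19.3% of the exonic bases of *Mlx*, whose level is therefore uncertain.

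Of the glucose transporters, *Slc2a1* (GLUT1) was at 73.2 ± 2.76 CPM in WT (SD, n = 5) and at 68.3 ± 8.64 CPM in HET (SD, n = 4) (log2 fold change −0.10, adjusted p = 0.911 in edgeR). This was −0.02 without HET 24, −0.17 without HET 5 and −0.03 without the choroid plexus libraries. *Slc2a4* (GLUT4), the insulin-regulated transporter, was at 8.97, 6.55, 9.29, 6.996 and 7.77 CPM in WT and at 6.89, 6.73, 5.39 and 5.34 CPM in HET. WT 15 lay within the range of HET. The log2 fold change was −0.38 (SE 0.14, edgeR unadjusted p = 0.0211, adjusted p = 0.909).

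Glucocorticoid and FOXO genes, 10 in number with the regulators *Nr3c1*, *Foxo1* and *Foxo3* among them, had 6 log2 fold changes above 0 (median 0.03). *Sgk1*, a kinase gene induced by glucocorticoids, was at 19.5 to 27.8 CPM in WT and 15.6 to 21.9 CPM in HET. It had a log2 fold change of −0.31 (edgeR, unadjusted p = 0.0498, adjusted p = 0.911), which was −0.16 with the choroid plexus covariate and −0.13 without the choroid plexus libraries. *Klf9*, a transcription factor gene induced by the same hormones, was at 5.28 to 6.79 CPM in WT and 6.13 to 8.15 CPM in HET, with a log2 fold change of 0.28 (edgeR, unadjusted p = 0.0444, adjusted p = 0.911). The inflammasome genes, 4 of which 3 were tested, had 0 of 3 log2 fold changes above 0 at a summed level of 1.41 to 2.30 CPM, and 3 of 3 without the choroid plexus libraries. The ubiquitin ligases, AMPK subunits and stress partners of TXNIP had 2 of 6, and 4 of 6 with the choroid plexus covariate. None of these passed the threshold.

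**Figure D3:**
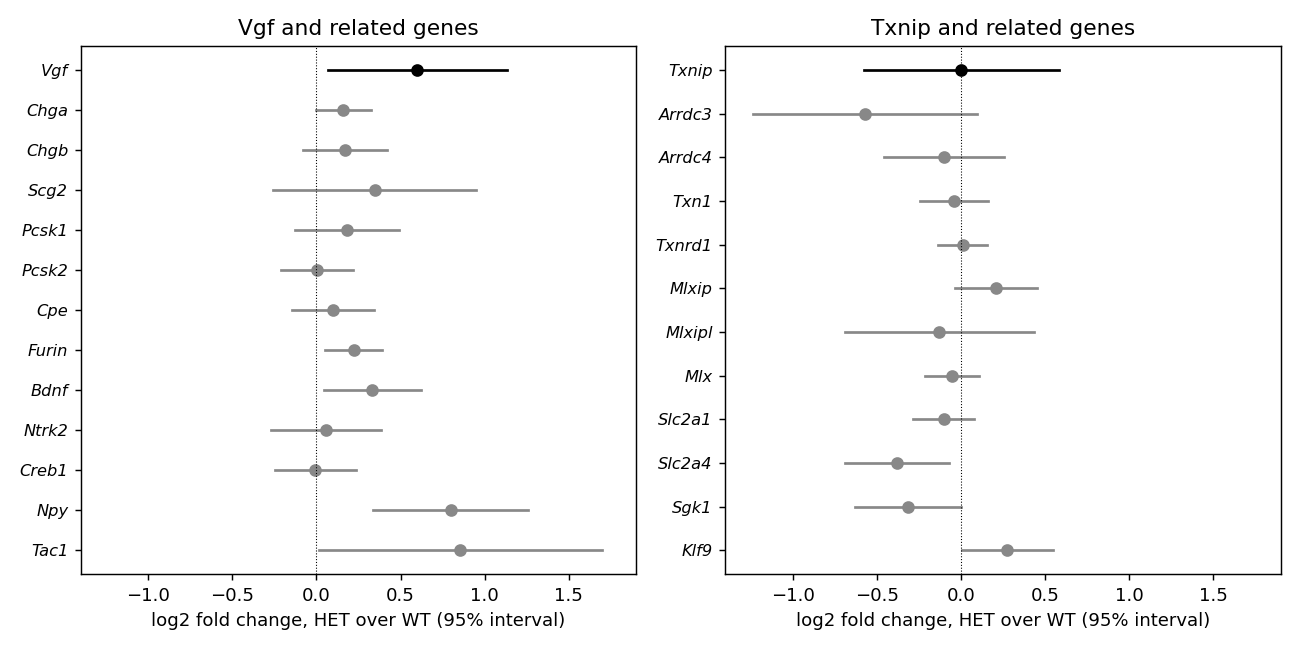
Log2 fold change of HET over WT (points) with its 95% interval (bars) in edgeR's test for *Vgf* and *Txnip* (black) and the named genes of their pathways (grey). *Vgf* is at 0.60 and *Npy* at 0.80 with intervals above 0 before adjustment over all genes, and the interval of *Txnip* runs from −0.58 to 0.58.

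The 2 genes were placed against markers of the cell types that forebrain can hold. The summed level of the 8 neuron markers was 5690 to 6404 CPM in WT and 5619 to 6862 CPM in HET, with HET 7 the highest of all embryos. The 8 radial glia markers, which mark the progenitors of the embryonic brain, summed to 2391 to 2974 CPM in WT and 2038 to 2601 CPM in HET, with HET 7 the lowest. This list includes *Fabp7*, for the brain lipid binding protein, which passed the threshold (log2 fold change −0.86, adjusted p = 0.0223 in edgeR). The labels name astrocytes as the cell type, and the 7 astrocyte markers summed to 393.8 to 500.1 CPM in WT and 414.6 to 475.8 CPM in HET. *Aldoc*, *Slc1a2* and *Gja1*, which radial glia also express, carried most of this sum, at 159 to 253, 82.7 to 185 and 75.5 to 102 CPM. *Gfap*, for the intermediate filament of mature astrocytes, was at 4.23 to 12.5 CPM.

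Of the 6 astrocyte markers tested, 2 had an unadjusted p under 0.05, against 5.42% of all tested genes, and in 1 the groups did not overlap, against 1.85%. *Aqp4*, for the water channel of astrocytes, was at 1.40, 1.42, 1.17, 2.02 and 1.39 CPM in WT 5, 15, 16, 41 and 43 and at 0.238, 0.163, 1.07 and 0.422 CPM in HET 5, 6, 7 and 24. It rested on 7 to 128 reads per embryo, and all HET values were lower than the lowest WT value. This gave a log2 fold change of −1.63 (adjusted p = 0.555 in edgeR), DESeq2 gave an adjusted p of 0.0310, and without HET 7 it was −2.40 (adjusted p = 0.0209 in edgeR). *Aldh1l1*, for a folate enzyme of astrocytes and radial glia, was at 15.3 to 31.7 CPM in WT and 2.79 to 18.5 CPM in HET, a log2 fold change of −1.16 (edgeR, unadjusted p = 0.0183, adjusted p = 0.904). Other genes overlap 13.4% of its exonic bases. HET 7 was the highest HET embryo for both, just below the WT range for *Aqp4* and within it for *Aldh1l1*. For *Vgf*, by contrast, HET 7 was the embryo farthest above the WT range.

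None of the genes in the other marker lists passed the threshold in edgeR. Of the 8 choroid plexus markers 6 had an unadjusted p under 0.05, against 5.42% of all tested genes, and the 8 summed to 18.0 to 2919 CPM in WT and 27.9 to 536.4 CPM in HET. The same held for 2 of 8 endothelium markers (median log2 fold change −0.26) and 1 of 7 meninges markers in edgeR. No tested marker of red blood cells, microglia or hypothalamus had an unadjusted p under 0.05. Endothelium markers summed to 119 to 164 CPM, red blood cell markers to 222 to 568 CPM, microglia markers to 36.7 to 46.9 CPM, and meninges markers to 11.1 to 40.5 CPM. Markers of the hypothalamus, where VGF is abundant in the adult, summed to 1.33 to 2.57 CPM, and 2 of the 8 passed the filter. The part of any of these cells in the levels of *Vgf* and *Txnip* was not tested.

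Over the 9 embryos, 7 relations of *Vgf* and *Txnip* with each other and with these marker sums were computed on log2 CPM, all chosen after the data were seen, with exact permutation tests and Benjamini-Hochberg adjustment. *Vgf* was lower where the summed level of radial glia markers was higher, with r = −0.794 (exact permutation p = 0.0105, adjusted p = 0.0368) and rho = −0.700 (exact permutation p = 0.0433, adjusted p = 0.151). Without WT 5 and HET 7, the embryos farthest from the median of the marker sum, r was −0.801, and without HET 7 alone it was −0.613. With the group means removed it was −0.668. With *Fabp7* left out of the list it was −0.667 (exact permutation p = 0.0456, adjusted p = 0.106), and then rho was −0.650 (exact permutation p = 0.0666, adjusted p = 0.155). This r was −0.618 without WT 5 and HET 7 and −0.443 without HET 7 alone. The adjusted p thus passed the threshold with *Fabp7* in the list and missed it without. Single markers differed, with r of −0.851 for *Vim*, −0.405 for *Fabp7*, −0.381 for *Nes* and −0.368 for *Pax6*. For *Hes1*, *Slc1a3*, *Hes5* and *Sox2* it was −0.185, −0.151, −0.0916 and 0.0755. *Vim* had the most reads of the 8 markers in every embryo and so weighs most in the sum. The relation without *Vim* was not computed.

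*Txnip* was lower where neuron markers were higher, with r = −0.822 (exact permutation p = 0.00577, adjusted p = 0.0368) and rho = −0.733 (exact permutation p = 0.0311, adjusted p = 0.151). Without HET 7 alone r was −0.627, and without HET 5 and HET 7 it was −0.482, so this relation rests in large part on those embryos. The relation of *Vgf* with neuron markers (r = 0.594, exact permutation p = 0.0896, adjusted p = 0.145, rho = 0.567 with adjusted p = 0.211) did not pass the threshold and was 0.0985 without the same embryos. *Vgf* and *Txnip* had r = −0.543 (exact permutation p = 0.143, adjusted p = 0.145) and rho = −0.433 (adjusted p = 0.350) with each other, and r was 0.346 without HET 5 and HET 7. *Txnip* and radial glia markers had r = 0.528 (exact permutation p = 0.145, adjusted p = 0.145) and rho = 0.283 (adjusted p = 0.463), and r was −0.00517 without WT 5 and HET 7. With *Fabp7* left out, r was 0.560 (exact permutation p = 0.109, adjusted p = 0.145), rho was 0.383 (adjusted p = 0.365), and r was 0.298 without the same embryos.

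**Figure D4:**
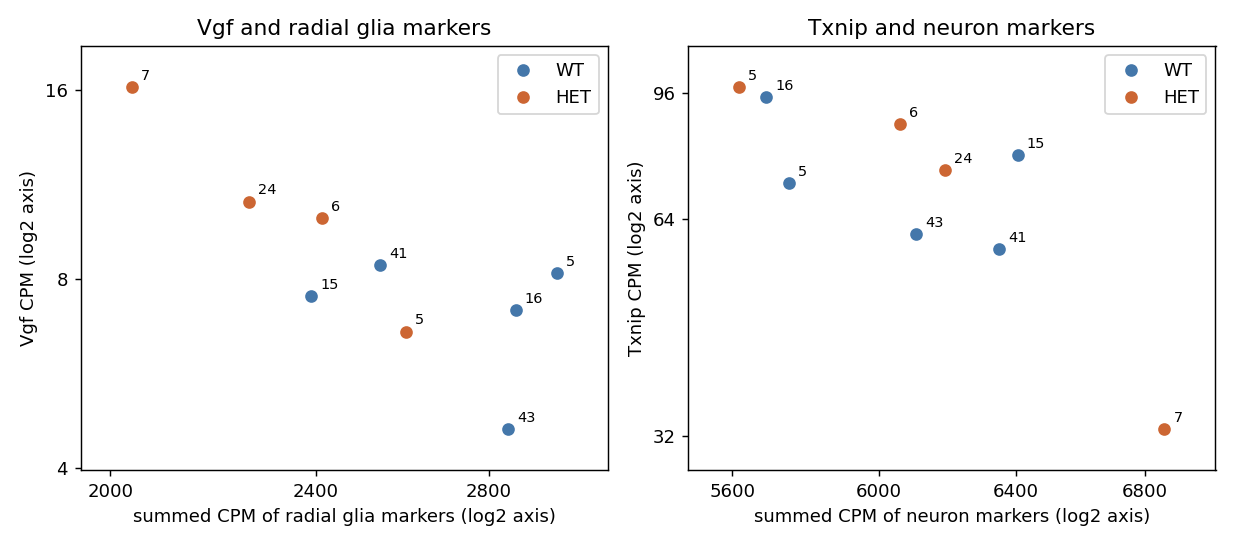
Level of *Vgf* against the summed level of radial glia markers (left) and of *Txnip* against that of neuron markers (right), in CPM on log2 axes, with 1 point per embryo, WT in blue and HET in orange. HET 7 lies at a corner of both plots, with the lowest radial glia sum (2038 CPM) and the highest neuron sum (6862 CPM).

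The genes most like each of the 2 in their pattern over the 9 embryos were found by Pearson's r of log2 CPM among 14371 genes with a mean of at least 1 CPM. These r values are given as a description, since the best of so many genes is high by selection. For *Vgf* they were *Tmem65* (r = 0.989), *B630019K06Rik* (0.975), *Cdk5r2* (0.966), *Rcan1* (0.950) and *Camk2d* (0.944), and 53 genes had r above 0.9. *Cdk5r2* encodes a neuronal activator of the kinase CDK5, *Rcan1* an inhibitor of calcineurin, and *Camk2d* a subunit of CaMKII.

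*Cdk5r2* showed the pattern at a similar amplitude, with 32.3, 27.5, 22.5, 27.2 and 18.1 CPM in WT 5, 15, 16, 41 and 43 and 20.0, 35.4, 58.5 and 37.6 CPM in HET 5, 6, 7 and 24. *Tmem65*, whose product is a mitochondrial membrane protein, showed it at a much smaller one, from 59.8 CPM in WT 43 to 87.7 CPM in HET 7. Both were lowest in WT 43 and highest in HET 7, as *Vgf* was. Without HET 7 the r of these 5 genes lay between 0.915 and 0.985.

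For *Txnip* they were *Gemin8* (r = 0.934), *Pabpc4l* (0.930), *Apool* (0.914), *Cyp39a1* (0.914) and *Syngr2* (0.914), and 10 genes had r above 0.9. *Cyp39a1*, for an oxysterol hydroxylase, was at 28.6, 25.1, 27.7, 24.2 and 25.4 CPM in WT and at 30.5, 30.3, 19.3 and 25.4 CPM in HET. It shared with *Txnip* the highest value in HET 5 and the lowest in HET 7. Without HET 7 the r of these 5 genes lay between 0.743 and 0.939. None of the 10 genes most like *Vgf* or *Txnip* passed the threshold between HET and WT in edgeR's test.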

How the data were processed

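RNA of bulk forebrain from 5 WT and 4 HET female embryos was captured by poly(A) tail and prepared with TruSeq. Per the labels and the methods, 1 read of each pair was aligned with STAR 2.7.9a to GRCm38.p6 and counted per gene with featureCounts on a GENCODE annotation. The deposited values are counts of reads per gene, left without normalization by the authors, and no column was without a sample. Reads sharing a start could be PCR copies, so depth covers counting error only.

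Analysis used R 4.3.3, edgeR 4.0.16, limma 3.58.1, DESeq2 1.42.0, Python 3.11.15 and scipy 1.17.1. Genes were filtered with filterByExpr (minimum count 10), scaled by TMM, and fitted over all 9 embryos without covariates by edgeR's quasi-likelihood test. The threshold was an adjusted p of 0.05. Standard errors were derived from the F statistic. A check of the test on simulated counts is not reported here, and no result rests on it. No pair of samples had identical counts. Coordinates came from an earlier GENCODE release on GRCm38, and promoters from RefSeq.

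The genes and lists were chosen with earlier results of these data known. Named were *Vgf*, *Txnip*, *Npas3*, 17 preset genes of both lists, every list gene with an unadjusted p under 0.05 or groups that did not overlap, and the 5 genes most like each of *Vgf* and *Txnip*. Alternatives were DESeq2, limma-voom, other scalings and filters, the average log2 CPM of the choroid plexus markers as a covariate, leaving out libraries with *Ttr* over 100 CPM, and leaving out each embryo.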

Additional observations from a re-analysis of the deposited data

Results flagged for a closer look

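In 54 groups of samples examined for a sample far from the others, 4 had one by Dixon's 95% criterion, where chance gives about 2.7. *Npas3* in HET 7 was at 34.1 CPM, while the other HET embryos lay between 27.8 and 28.2 CPM. *Arrdc3* in WT 5 was at 361.6 CPM, while the other WT embryos lay between 126.8 and 138.7 CPM. *Arrdc4* in HET 24 was at 47.8 CPM, and the other HET embryos at 35.5 to 36.6 CPM. *Cpe* in WT 43 was at 253 CPM, and the other WT embryos at 314 to 323 CPM. The levels of *Vgf* and *Txnip* in HET 7 did not meet the criterion within the HET group.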

How the results depend on the processing

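The log2 fold change of *Vgf* kept its direction and stayed short of the threshold in all 18 alternatives, from 0.34 to 0.78 (adjusted p from 0.444 to 0.999), with 0.60 in DESeq2 (adjusted p = 0.582), 0.70 with the choroid plexus covariate and 0.34 to 0.77 when each embryo was left out. That of *Npas3* was −0.37 to −0.25 over its 17 alternatives. *Txnip* turned to −0.0874 with limma-voom, −0.00596 with library size alone, −0.00301 with no filter and −0.0868 in the permutation test, and ran from −0.169 to 0.246 when each embryo was left out. Genes past the threshold numbered 84 with DESeq2 in place of 25, 15 without the libraries with *Ttr* over 100 CPM, and 14 to 23 when each embryo was left out, of which the lowest was without HET 6 (16 without HET 5 and 16 without HET 7). DESeq2 called 1 VGF-related gene, *Npy* (0.80, adjusted p = 0.0289), and edgeR 0.

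Signs also turned for genes near 0. *Pcsk2* was −0.00167 with library size alone and −0.00215 with no filter. With the choroid plexus covariate, *Arrdc4* was 0.0584, *Txnrd1* −0.0448 and *Gm15441* 0.112. Without the libraries with high *Ttr*, *Creb1* was 0.0264, *Arrdc4* 0.0555, *Txnrd1* −0.0686, *Mlx* 0.0387 and *Gm15441* 0.26. When each embryo was left out, the range was −0.0774 to 0.0554 for *Pcsk2*, −0.0115 to 0.175 for *Cpe*, −0.0343 to 0.151 for *Ntrk2*, −0.0719 to 0.0856 for *Creb1*, −0.214 to 0.0145 for *Arrdc4*, −0.0941 to 0.0209 for *Txn1*, −0.0178 to 0.0546 for *Txnrd1*, −0.317 to 0.0567 for *Mlxipl* and −0.200 to 0.0184 for *Gm15441*. The cause was not tested. *Tac1*, *Mlxipl* and *Gm15441* had no value under a filter of 1 CPM in every sample. No paired analysis was possible because WT and HET share only the number 5, and the numbers name embryos. With 4 and 5 embryos, the intervals of *Vgf* and *Txnip* leave room for folds of up to 2.19 and 1.498.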

Other observations

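WT 5, the embryo with high *Arrdc3*, also had the highest levels of 3 of the 8 tested activity-regulated genes. *Fos* was at 5.15 CPM in WT 5 and at 1.13 to 2.17 CPM in the other embryos, *Junb* at 5.87 CPM against 2.87 to 4.11 CPM, and *Nr4a1* at 10.8 CPM against 5.54 to 8.23 CPM. *Vgf*, which neuronal activity is known to induce, was at 8.18 CPM in that embryo, below WT 41 and 3 of the 4 HET embryos. These genes were singled out after their values were seen, and no comparison between groups rests on them. WT 5 stood apart in other genes too, also picked after their values were seen. The embryonic globin gene *Hbb-y* had 502 reads in WT 5 and 43 to 136 in the other embryos. *Hes5* had 1939 reads against 610 to 860, and the adult globin gene *Hbb-bs* 4325 against 8113 to 13551. Ages are given only as E16 to E17, and whether WT 5 differed in age was not tested.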
